A study of Mus musculus with 12 samples.

Results

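The 10 genes described here, Trem2, Tyrobp, Itgax, Lpl, Cst7, Spp1, Gpnmb, Clec7a, Cd9 and Lgals3, are the core of the signature of disease-associated microglia (DAM). They were taken as a list and matched by symbol to Ensembl mouse genes. All 10 of 10 were present in both deposited count tables, among the 27866 genes of the astrocyte table and the 30359 genes of the microglia table, and all 10 passed the filter on low counts in every comparison. The RNA came from hippocampi of male C57Bl6/J mice that received, at 2 months of age, a bilateral CA1 injection of an AAV2/9 vector carrying either the murine adenosine A2A receptor (AAV-A2A) or eGFP (AAV-GFP) under the astrocyte-selective GfaABC1D promoter, and were collected at 4 months, 2 months post-injection. Astrocytes were captured with ACSA-2 beads, and the cells that did not bind were then passed over CD11b beads to capture microglia. There were 12 libraries in 4 groups of 3, named here as labelled. The astrocyte libraries were 303_GFP, 306_GFP and 307_GFP with AAV-GFP and 309_A2A, 310_A2A and 313_A2A with AAV-A2A. The microglia libraries were CD11b_2328_Control, CD11b_2329_Control and CD11b_2331_Control with AAV-GFP and CD11b_2343_A2AR, CD11b_2344_A2AR and CD11b_2347_A2AR with AAV-A2A, and per-library values are given in these orders. The control animals also carried a vector, so every group had been injected, and the A2A transgene was placed in astrocytes, not in microglia.

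Microglia that meet amyloid plaques, dying neurons or damaged myelin lose part of their homeostatic programme and switch on a set of phagocytic, lysosomal and lipid-handling genes, which is the state called DAM. TREM2 is a lipid-sensing surface receptor that signals through the adaptor TYROBP (DAP12), and the full state depends on it. Itgax encodes CD11c, Clec7a the fungal glucan receptor dectin-1, Lpl lipoprotein lipase, Cst7 the cathepsin inhibitor cystatin F, Spp1 osteopontin, Gpnmb a lysosomal and surface glycoprotein, Cd9 a tetraspanin and Lgals3 the sugar-binding protein galectin-3. Several of these, Cd9, Spp1, Gpnmb and Lgals3 among them, are also made by cells other than microglia.

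The total count per library lay between 33937067 and 53206974 reads on genes. Adora2a, the gene the vector carries, had 774 to 981 counts in the AAV-GFP and 27303 to 42668 in the AAV-A2A astrocyte libraries, and 201 to 318 against 653 to 1529 counts in the microglia libraries. The 14 genes of a microglia identity list (Csf1r, Cx3cr1, P2ry12, Tmem119, C1qa and others) made up 1.69 to 9.68% of the counts in the CD11b and 0.0598 to 0.111% in the ACSA-2 libraries, and the 9 astrocyte markers 0.0214 to 0.0483% and 2.46 to 3.603%. The CD11b libraries were not alike. In CD11b_2328_Control, CD11b_2329_Control and CD11b_2347_A2AR the 8 choroid plexus markers took 12.4, 9.59 and 6.36% of the counts, against at most 0.0156% in CD11b_2331_Control, CD11b_2343_A2AR and CD11b_2344_A2AR, and the microglia identity list took 1.69, 3.39 and 3.80%, against 7.39 to 9.68%. These are called choroid plexus-rich and choroid plexus-poor below. Fewer microglia and less RNA per microglial cell cannot be told apart in such bulk libraries.

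The promoters of Trem2, Itgax and Spp1 are shown because no other member with a promoter entry had a match to the motifs named below. In the comparison of fractions given next, Trem2 was called higher in the microglia under both vectors. Itgax was called higher there in AAV-A2A animals only, and Spp1 lower in AAV-GFP animals only. Each line is the 250 bases before a RefSeq transcription start on the plus strand of GRCm38.p6. The windows are chr17:48346151-48346400 for Trem2, chr7:128129300-128129549 for Itgax and chr5:104434861-104435110 for the upstream one of the 2 Spp1 starts, and capitals mark motif matches.
Trem2: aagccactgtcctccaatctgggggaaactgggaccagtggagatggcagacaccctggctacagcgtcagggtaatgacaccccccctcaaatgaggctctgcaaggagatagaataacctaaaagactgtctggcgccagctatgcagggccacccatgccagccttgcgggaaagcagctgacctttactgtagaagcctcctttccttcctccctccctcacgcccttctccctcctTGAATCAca
Itgax: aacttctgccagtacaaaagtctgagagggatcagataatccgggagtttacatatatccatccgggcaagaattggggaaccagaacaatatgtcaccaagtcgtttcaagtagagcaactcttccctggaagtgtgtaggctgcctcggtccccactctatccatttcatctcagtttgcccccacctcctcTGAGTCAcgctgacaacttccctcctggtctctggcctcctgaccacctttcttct
Spp1: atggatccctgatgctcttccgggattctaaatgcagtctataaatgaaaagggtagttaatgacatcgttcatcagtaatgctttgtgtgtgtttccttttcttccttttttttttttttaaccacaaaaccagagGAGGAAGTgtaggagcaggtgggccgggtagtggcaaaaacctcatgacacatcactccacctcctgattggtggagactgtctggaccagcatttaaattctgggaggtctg

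Both strands of each window were searched for 3 motifs: TGANTCA (AP-1, the FOS and JUN family), GAGGAAGT (PU.1, the ETS factor of myeloid cells) and CACGTG (the E-box of MITF and TFEB). Promoters were found for 8 of the 10 genes, in 10 windows, while Tyrobp and Lpl had no entry. The AP-1 letters began 9 bases before the start in Trem2 and 56 bases before it in Itgax and were found in 20% of the 10 windows, against 6.75% of the 32851 windows of all genes. The PU.1 letters were found in 1 window, 113 bases before the Spp1 start, and in 2.44% of all windows. The E-box letters were in none of the 10 windows and in 6.02% of all. With so few windows these shares are a description only.

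The first comparison asked in which of the fractions each DAM gene was found. Levels that compare genes are given as RPKM, reads per kilobase of exon divided by depth, on 1 scaling of all 12 libraries. In the CD11b fraction the order by median over 6 libraries was Tyrobp (834 RPKM), Cd9 (299), Trem2 (202), Spp1 (34.2), Lgals3 (27.4), Cst7 (15.7), Clec7a (9.43), Lpl (3.93), Itgax (2.59) and Gpnmb (0.918). In the ACSA-2 fraction it was Cd9 (329 RPKM), Spp1 (129), Tyrobp (40.3), Lgals3 (36.3), Gpnmb (3.43), Trem2 (2.65), Lpl (0.921), Cst7 (0.602), Clec7a (0.510) and Itgax (0.0294). The ranges over libraries overlapped between all neighbours in these orders except Spp1 above Tyrobp and Lgals3 above Gpnmb in the ACSA-2 fraction.

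Trem2, Tyrobp and Clec7a were called higher in the microglia under both vectors. Trem2 (ENSMUSG00000023992, chr17:48346401-48354147 in GRCm38) had 64.7, 163 and 517 RPKM in the AAV-GFP and 478, 241 and 117 RPKM in the AAV-A2A CD11b libraries, against 5.16, 1.42 and 2.996 RPKM and 5.61, 2.31 and 2.26 RPKM in the ACSA-2 libraries. Every CD11b library was above every ACSA-2 library, which was so for 15.8% of all tested genes. By edgeR, the log2 fold change between the fractions was 6.28 ± 0.95 (SE) in AAV-GFP animals (adjusted p = 0.00081) and 6.36 ± 0.95 in AAV-A2A animals (adjusted p = 0.000318), 3 libraries against 3. Tyrobp (ENSMUSG00000030579, chr7:30413760-30417585) ranged from 326 to 2059 RPKM in CD11b and from 20.2 to 64.4 RPKM in ACSA-2 libraries, again without overlap, and its log2 fold changes were 5.02 ± 0.78 (edgeR adjusted p = 0.000954) and 4.49 ± 0.76 (0.000654). Clec7a (ENSMUSG00000079293, chr6:129461591-129472779) ranged from 3.49 to 26.5 RPKM against 0 to 0.870 RPKM, with log2 fold changes of 4.23 ± 1.30 (edgeR adjusted p = 0.0324) and 4.96 ± 1.34 (0.0101). The call of Clec7a in AAV-GFP animals was lost without any 1 of their libraries except CD11b_2328_Control (adjusted p up to 0.0945).

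In AAV-GFP animals 3 of the 10 genes were thus called higher in the CD11b fraction, against 14.4% of the 18602 genes tested, and 1 was called lower, against 12.3% (4 of 10 in either direction, against 26.7%). In AAV-A2A animals 6 were called higher (25% of all genes) and 1 lower (21%), or 7 of 10 in either direction against 46%. The median log2 fold change of the 10 genes was 1.73 and 3.68, beside 0.109 and 0.0496 over all tested genes. A call required an adjusted p below 0.05 and a log2 fold change beyond 0.32 in either direction. Fraction and set of libraries cannot be told apart, since the fractions share no library number and each was counted in its own table.

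Itgax, Cst7 and Lpl were called in AAV-A2A animals only, and the difference between the vectors was not called for any of them. Itgax had 54, 0 and 18 counts in the AAV-GFP and 0, 0 and 13 counts in the AAV-A2A ACSA-2 libraries, where 3 counts is the floor taken for detection. Its log2 fold change of CD11b over ACSA-2 was 1.89 ± 1.33 in AAV-GFP (edgeR adjusted p = 0.317) and 7.71 ± 1.74 in AAV-A2A animals (adjusted p = 0.00373). Cst7 (ENSMUSG00000068129, chr2:150570415-150578944) had 0, 181 and 13 and then 30, 0 and 42 counts in the ACSA-2 libraries, with log2 fold changes of 2.37 ± 1.57 (edgeR adjusted p = 0.287) and 5.57 ± 1.82 (0.0262). For Lpl (ENSMUSG00000015568, chr8:68880491-68907448) they were 1.58 ± 0.73 (edgeR adjusted p = 0.131) and 2.87 ± 0.77 (0.00966). The Cst7 call in AAV-A2A animals was lost without any 1 of 309_A2A, 310_A2A, 313_A2A and CD11b_2343_A2AR (adjusted p up to 0.0727).

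Spp1, Gpnmb, Cd9 and Lgals3 were not called higher in the microglia under either vector, and Spp1 and Gpnmb were called lower under 1 of them. Spp1 (ENSMUSG00000029304, chr5:104435118-104441050) had 225, 139 and 119 RPKM in the AAV-GFP ACSA-2 and 19.6, 15.3 and 54.0 RPKM in the AAV-GFP CD11b libraries. The log2 fold change of CD11b over ACSA-2 was -2.44 ± 0.58 (edgeR adjusted p = 0.0099). In AAV-A2A animals it was -1.34 ± 0.56 (adjusted p = 0.0688), with 120, 196 and 73.6 RPKM in ACSA-2 and 84.9, 32.6 and 35.8 RPKM in CD11b libraries, which overlapped. Of the exonic bases of Spp1, 309 (18.75%) lie under exons of Gm42793 on the same strand, and the authors' counting dropped reads that fell on both genes.

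Gpnmb (ENSMUSG00000029816, chr6:49036546-49070929) was the 1 member for which every CD11b library lay below every ACSA-2 library (15.8% of all tested genes), at 0.302 to 2.39 against 2.67 to 7.99 RPKM. The log2 fold change was -1.95 ± 0.72 in AAV-GFP (edgeR adjusted p = 0.065, and 0.0228 with DESeq2) and -2.17 ± 0.72 in AAV-A2A animals (adjusted p = 0.0284). The edgeR call was lost when any 1 of 309_A2A, 313_A2A, CD11b_2343_A2AR and CD11b_2344_A2AR was left out (adjusted p up to 0.108). Cd9 and Lgals3 did not pass in either comparison. For Cd9 the 95% interval of the log2 difference was -0.35 to 1.68 in AAV-GFP and -1.10 to 0.92 in AAV-A2A animals, and for Lgals3 it was -0.98 to 0.83 and -1.62 to 0.20. A Gm26728 transcript on the opposite strand covers 218 (10.7%) of the exonic bases of Cd9, and the strand setting of the counting is not given in the sources used here.

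**Figure D1:**
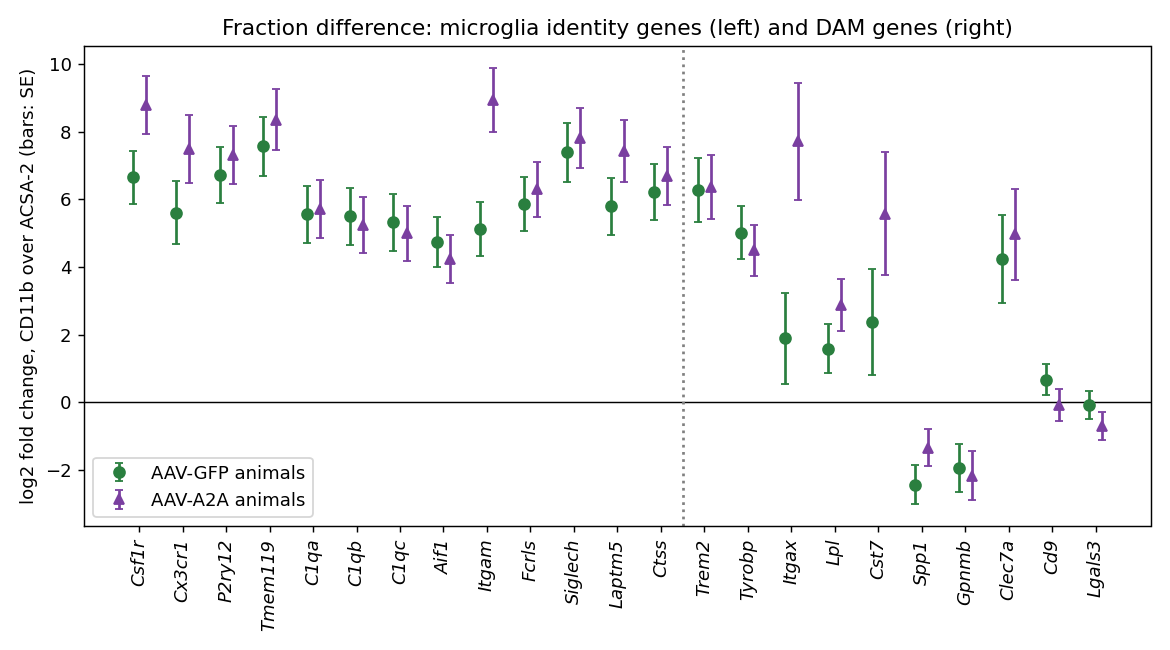
Log2 fold change of CD11b over ACSA-2 libraries (y axis, bars are SE, 3 against 3 libraries for each vector) for 13 of the microglia identity genes, left of the dotted line, and the 10 DAM genes, right of it. These identity genes lie between 4.24 and 8.95, Trem2, Tyrobp and Clec7a lie in or near that range, Cd9 and Lgals3 near 0, and Spp1 and Gpnmb below 0. Itgax and Cst7 lie in that range in AAV-A2A and below it in AAV-GFP animals. Lpl lies above 0 and below that range in both.

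Levels were also set against the microglial RNA of the same library. Counts were divided by the summed counts of the 14 identity genes, giving counts per 1000000 identity counts, and the median over the 6 ACSA-2 libraries was divided by that over the 6 CD11b libraries. A ratio of 1 means the same level per microglial marker count in both fractions. The ratio was 0.720 for Trem2, 1.74 for Itgax, 2.12 for Cst7, 2.49 for Tyrobp and 2.89 for Clec7a. It was 18.03 for Lpl, 64.2 for Cd9, 80.6 for Lgals3, 261 for Spp1 and 421 for Gpnmb. The ratios of Itgax, Cst7 and Clec7a rest on few counts, with at least 1 ACSA-2 library at 0. This is a ratio of RNA, and the cells that gave it in the ACSA-2 fraction were not tested.

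The second comparison asked whether the DAM genes of microglia differed when the A2A receptor was raised in neighbouring astrocytes. No member was called by edgeR, which called 0% of the 16949 tested genes. At an unadjusted p below 0.05 there were 2704 such genes (16%), Itgax among them and no other member, DESeq2 called 455 genes (2.46%) with Itgax among them, and limma-voom called 0. Of the 10 genes, 8 had a fold change above 1 and 2 below 1. The median log2 fold change of the 10 was 0.60, beside -0.05 over all tested genes, 0.48 over the 14 microglia identity genes and 0.56 over the 13 homeostatic genes. With the kind of library, choroid plexus-rich or -poor, as a term, the medians were 0.44 for the 10, 0.025 for all tested genes and 0.080 for the identity genes. Levels within a fraction are given below as CPM, counts per 1000000 reads on genes, after TMM scaling of its 6 libraries.

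Itgax (ENSMUSG00000030789, chr7:128129547-128150657), which encodes the integrin subunit CD11c, stood apart from the other members. It had 52, 53 and 182 counts in the AAV-GFP and 730, 762 and 1186 counts in the AAV-A2A CD11b libraries, or 2.29 ± 2.01 against 21.1 ± 1.05 CPM (SD, n = 3). The AAV-A2A libraries lay within a narrow band, well above the highest AAV-GFP library. The log2 fold change was 3.20 ± 0.68 (SE), a 9.19-fold higher level, with a 95% interval of 1.58 to 4.82. Its adjusted p was 0.28 with edgeR and 0.00185 with DESeq2, and from 0.132 to 0.742 with edgeR when 1 library at a time was left out. Groups that did not overlap, with AAV-A2A above, were found for 12.6% of all tested genes (10.9% with AAV-A2A below), and by unadjusted p Itgax ranked 40 among the 16949.

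The Itgax values differed in the same direction within both kinds of library. Among the choroid plexus-poor libraries the log2 fold change was 2.17 (CD11b_2343_A2AR and CD11b_2344_A2AR against CD11b_2331_Control), and among the choroid plexus-rich ones 4.28 (CD11b_2347_A2AR against CD11b_2328_Control and CD11b_2329_Control). With the kind of library as a term in the edgeR fit it was 3.21 (adjusted p = 0.138). Itgax had 67.5, 39.7 and 44.9 counts per 1000000 microglia identity counts in the AAV-GFP and 182, 286 and 586 counts in the AAV-A2A libraries, again without overlap. On this scale 0.832% of all tested genes lay higher in every AAV-A2A library.

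CD11c is also carried by dendritic cells. A list of 11 dendritic cell and antigen-presentation genes, added after the data had been seen, took 0.0851, 0.101 and 0.0913% of the counts in the AAV-GFP and 0.178, 0.0298 and 0.257% in the AAV-A2A CD11b libraries, and all 11 were above 0 in at least 1 library. Those groups overlapped: CD11b_2344_A2AR had the lowest share of all 6 libraries and 762 Itgax counts. Flt3 had 53, 61 and 289 counts with AAV-GFP against 505, 60 and 329 with AAV-A2A, and Cd74, an abundant MHC class II gene, 20380, 20203 and 20269 against 41307, 6083 and 82317 counts. Of 10 dendritic cell genes that passed the filter, 8 had a fold change above 1, their median log2 fold change was 0.68, and 1 did not overlap. Of the 8 border macrophage genes, 5 had a fold change above 1, with a median of 0.60, and the list took 0.00683 to 0.0235% of the counts with AAV-GFP and 0.0169 to 0.0292% with AAV-A2A. Mrc1, the mannose receptor, had 10.5, 12.0 and 38.9 CPM with AAV-GFP and 53.1, 54.3 and 97.3 CPM with AAV-A2A. These did not overlap, with a log2 fold change of 1.74 ± 0.59 (edgeR adjusted p = 0.282). Cd163, a scavenger receptor, had 1.93 ± 0.77 (0.302) and F13a1 1.38 ± 0.75 (0.401). Pf4, the most abundant of the list per kilobase, was among the 3 with a fold change below 1, at -0.45 ± 0.63 (0.744). Other markers did separate the vectors in the CD11b fraction: the 5 erythrocyte genes took 0.0929 to 0.664% of the counts with AAV-GFP and 0.00629 to 0.0213% with AAV-A2A, the 8 neuronal genes 0.00268 to 0.0191% and 0.000923 to 0.00151%, and the 5 ependymal genes 0.0154 to 0.0349% and 0.00316 to 0.00736%. The part of these cells in the Itgax result was not tested.

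Trem2 had 337, 827 and 2486 CPM in the AAV-GFP and 2262, 1139 and 630 CPM in the AAV-A2A libraries. The groups overlapped over most of their range, and in each the choroid plexus-rich libraries were the lowest. The log2 fold change was 0.14 with a 95% interval of -1.85 to 2.13 (edgeR adjusted p = 0.945), so differences of about 4-fold in either direction were within reach of the error. Tyrobp followed it, at 228, 610 and 1335 CPM against 1160, 495 and 336 CPM (log2 fold change -0.13, edgeR adjusted p = 0.947). Among the AAV-GFP libraries the highest level was 7.39 times the lowest for Trem2 and 5.85 times for Tyrobp, and 4.26 times or more for each of the 14 identity genes.

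When set against the microglia identity counts, that spread narrowed. Trem2 had 22170, 26400 and 24150 counts per 1000000 identity counts in the AAV-GFP and 20690, 15090 and 16910 in the AAV-A2A libraries, which did not overlap, and Tyrobp had 15040, 19470 and 12970 against 10610, 6556 and 9017. Cd9 was also without overlap on this scale, at 12940 or more against 12150 or less. On this scale 5.81% of all tested genes lay lower in every AAV-A2A library. In edgeR scaled to the identity counts, the log2 fold changes were -0.46 for Trem2 (adjusted p = 0.727), -0.86 for Tyrobp (0.585) and -1.28 for Cd9 (0.564), and none was called. The direction for Trem2 thus turned with the scaling. Among the identity genes, Csf1r and Itgam were themselves higher in every AAV-A2A than in every AAV-GFP library (log2 fold change 1.74 and 1.81, not called), which lowers any value divided by the list.

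**Figure D2:**
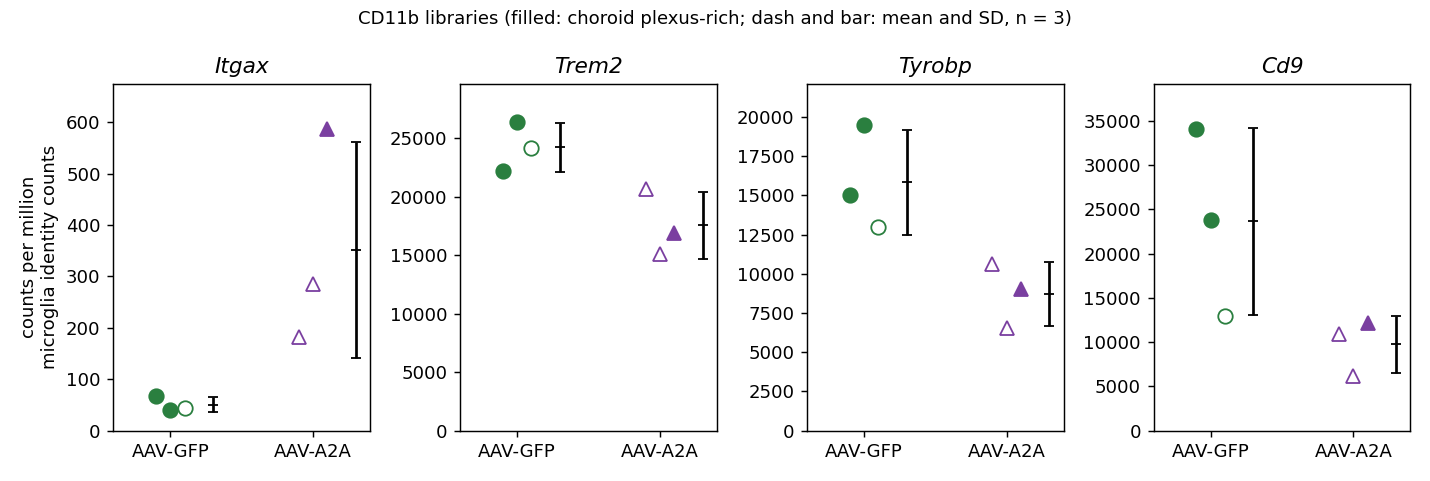
Counts of Itgax, Trem2, Tyrobp and Cd9 per 1000000 microglia identity counts (y axes) in the 6 CD11b libraries by vector; filled symbols are choroid plexus-rich libraries, dashes and bars the mean and SD of 3. Itgax lies higher in all AAV-A2A libraries, with 182 as their lowest value and 67.5 as the highest in AAV-GFP, and the other 3 genes lie lower in them.

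Lpl, Cst7, Spp1 and Clec7a had fold changes above 1 that did not pass the test. Cst7 had 4.67, 4.01 and 20.7 CPM in the AAV-GFP and 50.4, 18.3 and 12.9 CPM in the AAV-A2A libraries, a log2 fold change of 1.47 ± 0.82 (edgeR adjusted p = 0.412). The lone AAV-GFP library above 5 CPM was the choroid plexus-poor CD11b_2331_Control, and without it the log2 fold change was 2.65, the highest over the libraries left out. Clec7a, the dectin-1 receptor, had 9.68, 17.4 and 36.9 against 66.7, 20.1 and 31.3 CPM (log2 fold change 0.89 ± 0.63, edgeR adjusted p = 0.515). Lpl had a log2 fold change of 0.86 ± 0.62 (edgeR adjusted p = 0.516) and Spp1 of 0.77 ± 0.58 (0.539). Within the choroid plexus-poor libraries those of Cst7, Clec7a, Lpl and Spp1 were 0.73, 0.24, 0.02 and 0.10, and within the rich ones 1.58, 1.22, 1.54 and 1.11.

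Gpnmb, Cd9 and Lgals3 were not called either. Gpnmb had 7.81, 2.02 and 7.54 CPM in the AAV-GFP and 4.33, 2.01 and 16.9 CPM in the AAV-A2A libraries. Its log2 fold change of 0.42 turned to -0.85 without CD11b_2347_A2AR, which held the highest value and was choroid plexus-rich, and it was -1.25 in the poor and 1.80 in the rich libraries. Lgals3 was the steadiest of the 10 in controls, at 48.5, 51.2 and 51.6 CPM, a 1.06-fold range across libraries whose identity genes differed 4-fold or more, and had 87.2, 21.8 and 56.4 CPM in AAV-A2A libraries. Its log2 fold change was 0.13 (95% interval -1.02 to 1.28) and that of Cd9 -0.30 (-1.71 to 1.11).

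**Figure D3:**
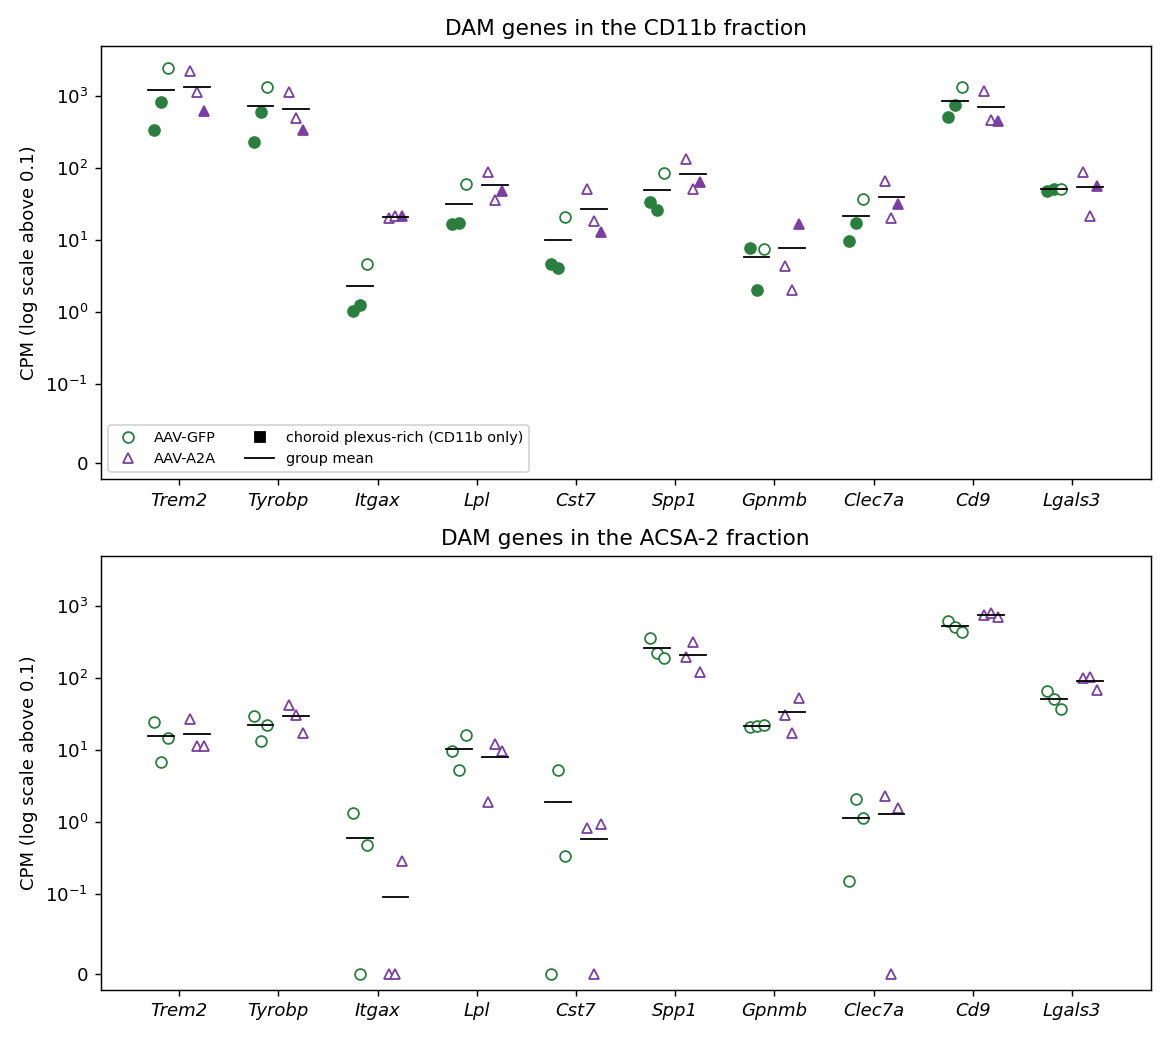
Level of each DAM gene in CPM (y axes, logarithmic above 0.1) in every CD11b library (top) and ACSA-2 library (bottom), circles for AAV-GFP and triangles for AAV-A2A, with filled symbols for choroid plexus-rich CD11b libraries and a line at each group mean. Itgax separates the vectors in CD11b libraries, and Cd9 and Lgals3 do so in ACSA-2 libraries.

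The third comparison was the same contrast in the astrocyte fraction, whose cells carried the transgene. No member was called by edgeR, which called 3.36% of the 16451 tested genes, 29 higher (0.176%) and 524 lower (3.19%). Lgals3 and Cd9 had an unadjusted p below 0.05, as had 2141 genes (13%) in all, and DESeq2 called Lgals3 beside 6.85% of all genes. Of the 10 genes, 6 had a fold change above 1, and their median log2 fold change was 0.15, beside 0.02 over all tested genes.

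Lgals3 (ENSMUSG00000050335, chr14:47367751-47386160) had 65.8, 51.3 and 37.9 CPM in the AAV-GFP and 101, 103 and 68.9 CPM in the AAV-A2A ACSA-2 libraries. The lowest AAV-A2A library lay just above the highest control. The log2 fold change was 0.81 ± 0.25 (SE), or 1.76-fold, with an adjusted p of 0.158 by edgeR and 0.0489 by DESeq2. Cd9 (ENSMUSG00000030342, chr6:125460266-125494791) had 636, 524 and 444 CPM against 764, 819 and 711 CPM, likewise without overlap, and a log2 fold change of 0.52 ± 0.18, or 1.43-fold (adjusted p = 0.226 by edgeR and 0.0887 by DESeq2). Groups without overlap and with AAV-A2A above were found for 8.61% of all tested genes, and with AAV-A2A below for 10.9%. With 1 library at a time left out, the log2 fold change stayed between 0.63 and 1.01 for Lgals3 and between 0.39 and 0.64 for Cd9, and neither was called. In counts per 1000000 microglia identity counts Lgals3 was also without overlap, at 34820 to 82880 against 103400 to 107200, while Cd9 overlapped. On that scale 4.42% of all tested genes were higher and 8.34% lower in every AAV-A2A library.

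Gpnmb had 21.1, 21.4 and 22.7 CPM in the AAV-GFP and 30.6, 17.4 and 53.1 CPM in the AAV-A2A ACSA-2 libraries. The controls were nearly equal and the AAV-A2A libraries lay on both sides of them (log2 fold change 0.63 ± 0.36, edgeR adjusted p = 0.544). Spp1, high in these libraries, had 363, 227 and 192 against 196, 323 and 124 CPM, a log2 fold change of -0.28 with an interval of -1.07 to 0.50. For Trem2 and Tyrobp, which stood at 6.94 to 27.5 and 13.3 to 42.6 CPM, the log2 fold changes were 0.11 (-1.02 to 1.24) and 0.45 (-0.42 to 1.32). Itgax, Cst7 and Clec7a each had at least 1 library at 0 and none above 181 counts, so only very large differences could have been seen. Lpl had 9.63, 5.34 and 16.1 against 1.89, 12.3 and 9.66 CPM.

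**Figure D4:**
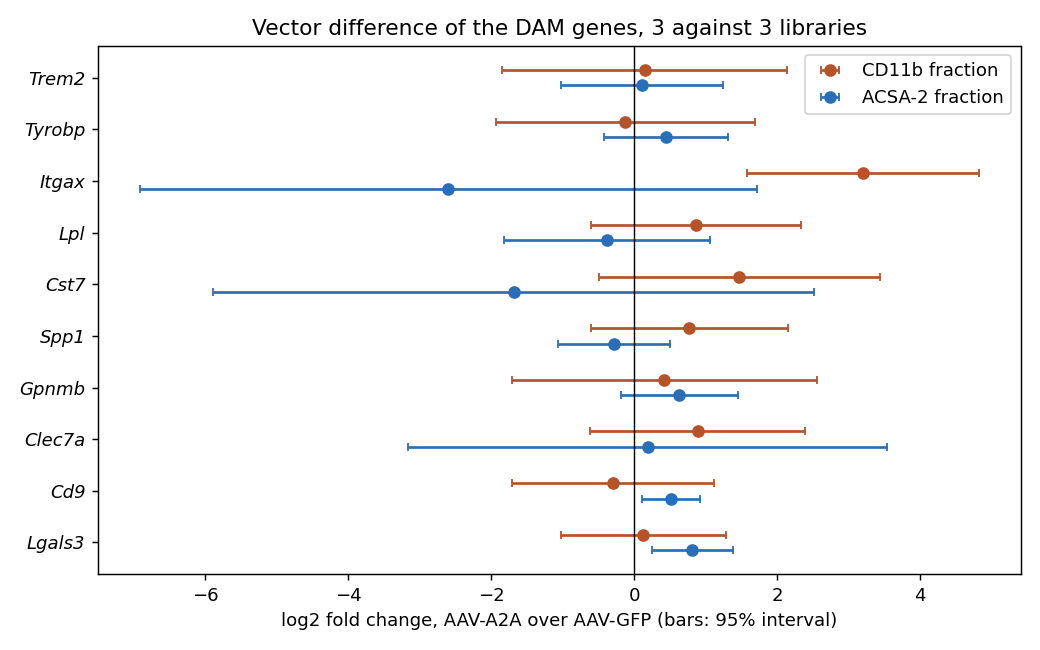
Log2 fold change of AAV-A2A over AAV-GFP (x axis, bars are 95% intervals of edgeR, 3 against 3 libraries) for the 10 DAM genes in the CD11b and ACSA-2 fractions. The interval excludes 0 for Itgax in the CD11b fraction and for Cd9 and Lgals3 in the ACSA-2 fraction before adjustment for the number of genes tested, and none of these passed after it.

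Whether the vector difference was itself unlike in the 2 fractions was tested in 1 fit of all 12 libraries. No member was called by edgeR, beside 0.403% of the 18602 genes (0.366% higher and 0.0376% lower), and 3645 genes (19.6%) had an unadjusted p below 0.05, with Itgax the only member. limma-voom called no member and DESeq2 called Itgax beside 9.02% of all genes. For Itgax the vector difference in CD11b less that in ACSA-2 was 5.83 ± 2.00 on the log2 scale (adjusted p = 0.147 by edgeR and 0.0373 by DESeq2), a value that rests on 0 to 54 counts in the ACSA-2 libraries. For Lgals3 it was -0.63 (95% interval -1.91 to 0.65), for Cd9 -0.76 (-2.19 to 0.68), and for Trem2 0.08 (-2.26 to 2.42). Tyrobp had -0.52 (-2.57 to 1.51) and Gpnmb -0.22 (-2.37 to 1.93). The values of Lpl, Cst7, Spp1 and Clec7a were 1.29, 3.21, 1.096 and 0.74, with edgeR adjusted p from 0.449 to 0.841.

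Beyond the core, 31 other genes that rise in DAM were listed, of which 30 were tested in the CD11b fraction and none was called. Of these 30, 23 had a fold change above 1, as had 8119 of the 16949 tested genes, and the median log2 fold change was 0.27. With the kind of library as a term in the fit the median was 0.017, beside 0.025 over all tested genes. Axl, a TAM receptor for apoptotic cells, had the smallest p. Its levels of 29.6, 25.8 and 47.2 CPM with AAV-GFP and 104, 161 and 169 CPM with AAV-A2A did not overlap. Such groups, with AAV-A2A above, were found for 12.6% of all tested genes. The log2 fold change of Axl was 2.08 ± 0.36 (adjusted p = 0.28 by edgeR and 0.00252 by DESeq2). Csf1, a microglial growth factor, and Hif1a, the hypoxia factor, followed with 1.51 ± 0.38 and 0.98 ± 0.28 (edgeR adjusted p = 0.28 for both). Ctsd, a lysosomal protease and the most abundant of the list per kilobase, had 0.39 ± 0.73.

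In the ACSA-2 fraction 29 of the 31 were tested. Axl fell and was the only one called, from 424, 457 and 496 CPM to 211, 141 and 198 CPM, a log2 fold change of -1.33 ± 0.19 (edgeR adjusted p = 0.00567). That call held in all 6 fits with 1 library left out, and was lost in 2 of 15 alternative fits in all. None of the 29 rose past the test. Apoe, the lipid carrier that is abundant in astrocytes and also induced in DAM, had 1784193 to 2086796 counts in AAV-GFP and 2596274 to 3705683 in AAV-A2A libraries, with a log2 fold change of 0.51 ± 0.17 (adjusted p = 0.186 by edgeR and 0.00901 by DESeq2). The median of the 29 was 0.30.

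The genes around TREM2 were a list of 18, with kinases, phosphatases, adaptors, the sheddases of the receptor and its ligands. In the CD11b fraction all 18 were tested and none was called, 15 had a fold change above 1, and the median log2 fold change was 0.80, or 0.69 with the kind of library as a term. The smallest p values were those of the sheddases Adam10 (1.76 ± 0.50) and Adam17 (1.61 ± 0.47), and of the lipid phosphatase Inpp5d (2.11 ± 0.74), with edgeR adjusted p of 0.28, 0.28 and 0.286. In the ACSA-2 fraction 16 were tested, with a median of -0.24, and Pik3r1, a regulatory subunit of PI3 kinase, was the 1 called by edgeR. It fell from between 6874 and 11421 counts with AAV-GFP to between 1963 and 2757 with AAV-A2A, a log2 fold change of -2.12 ± 0.24 (edgeR adjusted p = 0.00248). DESeq2 called 2 of 17 higher, Hcst and Apoe, and 1 lower, Pik3r1, beside 6.85% of all genes. Hcst had 0, 0 and 0 counts with AAV-GFP and 20, 68 and 14 with AAV-A2A (adjusted p = 0.0668 by edgeR and 0.00478 by DESeq2).

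The homeostatic microglia genes, which are lowered in DAM, were not called in the CD11b fraction by edgeR or DESeq2, and none had an unadjusted p below 0.05. All 13 had a fold change above 1, between 0.34 and 1.74 on the log2 scale. With the kind of library as a term their median fell from 0.56 to 0.25. Csf1r had the smallest p (1.74 ± 0.83, edgeR adjusted p = 0.352). In the ACSA-2 fraction 10 of 13 had a fold change below 1. Sall1, a transcriptional regulator, was the 1 called by edgeR (-1.74 ± 0.40, adjusted p = 0.0493), beside 3.36% of all genes. DESeq2 called 2 of 13, both lower, beside 6.85% of all genes. These were Sall1 and Cx3cr1 (DESeq2 adjusted p = 0.000616 and 0.0209), and Cx3cr1 had an edgeR adjusted p of 0.164.

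Between the fractions, 16 of the 30 other DAM genes tested were called higher in CD11b and 4 lower in AAV-GFP animals, and 17 and 5 in AAV-A2A animals. Over all tested genes the shares were 14.4% higher and 12.3% lower, and then 25% and 21%, which holds for the lists that follow as well. Among the higher were the chemokine gene Ccl4 (7.22 ± 0.55 and 5.31 ± 0.50 on the log2 scale) and Cd68, a lysosomal macrophage marker (5.05 ± 0.88 and 4.61 ± 0.86), and among the lower Fabp5, a fatty acid carrier (-5.55 ± 0.36 and -6.70 ± 0.38), and Apoe (-3.08 ± 0.44 and -3.55 ± 0.45). Of the TREM2 list 13 of 18 were called higher and 2 lower in AAV-GFP, and 14 and 3 in AAV-A2A animals, with Btk at 7.45 ± 1.26 and 8.73 ± 1.33. The homeostatic list had 12 and 13 of 13 called higher and none lower. The 10 dissociation response genes, which rise when tissue is kept warm during cell isolation, were all called higher in CD11b in both vectors, at 1.603 to 2.72% of the CD11b and 0.0812 to 0.139% of the ACSA-2 counts, and their part in the differences between fractions was not tested.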

How the data were processed

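Read counts per gene were deposited by the authors, 1 table for each fraction. Per the labels and the study's methods, cDNA was amplified by PCR without molecular identifiers, sequenced as single-end reads, trimmed with cutadapt 1.10, mapped to mm10 with STAR 2.5.3 and counted with HTSeq 0.6.1p1 in union mode, unique and unambiguous reads only. Amplified reads are not independent molecules, so counts and floors cover counting error only.

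Gene names, positions and exon lengths came from GENCODE vM21 (GRCm38), in which 27813 and 30289 identifiers of the ACSA-2 and CD11b tables were found. Promoters were those of RefSeq (GRCm38.p6). The vector contrasts were fitted within each fraction and the others in 1 fit of 12 libraries over the genes of both tables, with edgeR 4.0.16 (TMM, filterByExpr, robust quasi-likelihood test, Benjamini-Hochberg adjustment over all tested genes) in R 4.3.3. SE is the log2 fold change divided by the square root of F. Alternatives were DESeq2 1.42.0, limma-voom (limma 3.58.1), other scalings and filters, and each library left out. Added after the data were seen were the choroid plexus class or kind of library (over 2% of counts on its markers is rich) and an offset for gene length and GC. The fits were tested on simulated data.

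The members and lists were chosen with earlier results of these data known. All members were named in each comparison; of other lists, called genes (at most 4 a direction), the most abundant per kilobase and, where none was called, the 3 of smallest p. Some called genes of other lists are given as counts only, 1 gene that this rule names is not reported here, and Flt3 and Cd74 were chosen after their values were seen. The study describes the replicates of the astrocyte libraries as animals. The labels tie no library number to an animal, so for the microglia libraries p-values measure only the spread between libraries, which may be technical. No replicate pair agreed within sampling noise (chi-square per degree of freedom 55.2 or more).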

Additional observations from a re-analysis of the deposited data

Results flagged for a closer look

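With edgeR, Axl was the only gene of the core, other DAM and TREM2 lists whose vector difference was called unlike in the 2 fractions. Over all tested genes edgeR called 0.403%. DESeq2 called 1 of 10, 3 of 31 and 4 of 17 genes of these lists, beside 9.02% of all genes. For Axl the difference in CD11b less that in ACSA-2 was 3.44 ± 0.44 on the log2 scale (edgeR adjusted p = 0.0438, 3 libraries in each of 4 groups). The vector difference was 2.08 in the CD11b and -1.33 in the ACSA-2 fraction. In CD11b the 3 AAV-A2A libraries lay above the 3 AAV-GFP libraries, as for 12.6% of tested genes. In ACSA-2 they lay below them, as for 10.9%. DESeq2 and limma-voom also called the Axl difference between the fractions (adjusted p = 6.08e-10 and 0.0277), while edgeR with total counts called no gene. The call of Axl was lost in 10 of 19 alternative fits in all, among them those with 1 library left out. With 1 library at a time left out the value stayed between 3.27 and 3.80, and the edgeR call held in 3 of 12 fits (adjusted p from 0.00544 to 0.169): without 309_A2A, CD11b_2331_Control or CD11b_2343_A2AR.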

How the results depend on the processing

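No paired analysis was possible because the titles give the groups compared no shared number, and whether the fractions share animals is not given in the sources used here. DESeq2 called 1 member in each vector contrast and 1 in the difference between them, against 0 with edgeR. It called 1263 genes in the ACSA-2 fraction where edgeR called 553, and 455 in CD11b where edgeR called 0. For the difference between the vector effects, edgeR called 75 genes, 10 with median-of-ratios factors, 0 with total counts, 345 with at least 10 counts in every library and, with 1 library left out, 0 to 1286. In the ACSA-2 contrast it called 156 in the fit of 12 libraries and 272 to 448 with 1 left out. Members called in the fractions numbered 3 to 5 in AAV-GFP and 5 to 8 in AAV-A2A animals with 1 left out. Over all tested genes the same fits called 3379 to 5224 in AAV-GFP and 6969 to 8999 in AAV-A2A animals.

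Low counts limited the comparison of Itgax, Cst7 and Clec7a in the ACSA-2 libraries, which held 0 to 181 of their counts. The reason for these low counts was not tested. Itgax kept its direction in the CD11b fraction under all alternatives run, with log2 fold changes of 2.17 to 4.28. Directions that turned were of genes with no call, and the cause was not tested. In CD11b, limma-voom gave 0.015 for Tyrobp and -0.080 for Lgals3, and total counts -0.022 for Lgals3. Scaling to microglia identity counts gave -0.46 for Trem2, -0.11 for Spp1, -0.32 for Gpnmb and -1.04 for Lgals3. The choroid plexus term gave -0.22 for Trem2, and the poor libraries alone -0.55 for Trem2 and -1.25 for Gpnmb. Removing length and GC trends gave 0.59 for Tyrobp, -0.035 for Gpnmb and 0.22 for Cd9. In ACSA-2, Clec7a was -1.05 with limma-voom and -0.037 without those trends. With total counts the fraction difference of Lgals3 in AAV-GFP animals was 0.043 and the interaction of Trem2 -0.11.

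With 1 library left out, CD11b values ran from -0.44 to 1.21 (Trem2), -0.79 to 0.66 (Tyrobp), -0.91 to 0.16 (Cd9), -0.38 to 0.51 (Lgals3) and -0.85 to 0.86 (Gpnmb), and ACSA-2 values from -0.71 to 0.014 (Spp1), -0.51 to 1.00 (Clec7a), -0.44 to 0.62 (Trem2), -2.29 to 1.77 (Cst7) and -0.84 to 0.080 (Lpl). The fraction difference ran from -0.17 to 0.14 for Lgals3 in AAV-GFP and from -0.75 to 0.19 for Cd9 in AAV-A2A animals, and the interaction from -0.55 to 1.21 (Trem2), -1.24 to 0.32 (Tyrobp), -0.24 to 4.45 (Cst7), -0.067 to 1.46 (Clec7a) and -1.38 to 0.26 (Gpnmb).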
